A study of Mus musculus with 6 samples.

Results

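The genes described here make DNA in S phase or drive the cell through mitosis. They were examined in mouse embryonic stem cells with and without knockdown of Trim71, also called Lin41, which binds mRNA and can act as a ubiquitin ligase in early embryos. Members were the probe sets whose 1 annotated gene symbol stood in a list of 46 genes. Of these, 45 genes were measured through 48 probe sets, among 19937 genes in all. The S phase members numbered 20, from the helicase subunit Mcm2 to the clamp loader subunit Rfc4, and the measured G2/M members numbered 25, from the cyclin Ccnb2 to the contractile ring protein Anln. Ccnb1, which encodes the main mitotic cyclin and heads the G2/M list, was not analysed here.

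The knockdown group held 3 arrays of embryonic stem cells labelled Trim71 KD, and the control group held 3 arrays of embryonic stem cells labelled wild-type. Per the labels' protocols, a pool of 3 siRNAs against Trim71, or a control siRNA with no target, was delivered by lipid transfection, and cells were collected 72 h later. The series title calls the control cells parental, so the labels leave unsaid whether those arrays came from cells given the control siRNA. The labels name neither strain nor line and do not say that the replicates were separate cultures, so p-values measure a spread between arrays that may be technical.

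Replication starts where the origin recognition complex, with Cdc6 and Cdt1, loads the ring of MCM proteins onto DNA, and it continues once the GINS complex joins that ring. Most genes for these steps are transcribed as cells pass from G1 into S, under E2F factors and their pocket protein partners. Genes of mitosis are transcribed later, in G2, through promoters that often hold a cell cycle homology region (CHR) and CCAAT boxes, which bind the DREAM and MYB-MuvB complexes and NF-Y. Mouse embryonic stem cells have a very short G1 phase, spend most of their cycle in S phase and keep the activity of cyclin-dependent kinases high.

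These elements can be seen in the members' promoters. Of the measured members, 17 S phase genes matched the RefSeq promoter table with 18 promoters and 20 G2/M genes matched with 20. Each promoter ran from 250 bases before the transcription start to 50 after it. The 150 bases just before the start are printed here for 4 S phase genes and then for 4 G2/M genes in which the searched letters lie upstream, from RefSeq, build GRCm38.p6, 5′ to 3′ on the strand of the gene. Capitals mark matches on either strand to a CHR, a CCAAT box or an E2F core. The CHR was searched as TTTGAA and, in a form that differs by 1 letter, as TTCGAA, and the CCAAT box by the 5 letters of its name. The E2F core was searched as TTCCCGC, and also with its letters 3 and 4 replaced by the pairs GG, GC and CG.
Cdc6, chr11:98908001-98908150, plus strand: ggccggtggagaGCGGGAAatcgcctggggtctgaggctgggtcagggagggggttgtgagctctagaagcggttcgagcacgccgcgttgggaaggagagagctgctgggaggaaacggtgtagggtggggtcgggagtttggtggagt
Orc1, chr4:108579304-108579453, plus strand: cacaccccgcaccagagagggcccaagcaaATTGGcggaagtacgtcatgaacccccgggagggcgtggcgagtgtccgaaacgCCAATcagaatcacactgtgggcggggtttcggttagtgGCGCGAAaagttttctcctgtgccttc
Mcm6, chr1:128359706-128359855, minus strand: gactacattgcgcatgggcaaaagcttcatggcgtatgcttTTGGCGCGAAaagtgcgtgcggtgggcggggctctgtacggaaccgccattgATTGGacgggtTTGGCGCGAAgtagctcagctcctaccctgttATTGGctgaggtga
Rrm1, chr7:102441545-102441694, plus strand: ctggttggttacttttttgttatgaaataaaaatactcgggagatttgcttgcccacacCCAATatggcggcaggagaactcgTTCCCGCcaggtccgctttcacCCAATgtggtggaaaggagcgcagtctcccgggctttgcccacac
Cdk1, chr10:69352913-69353062, minus strand: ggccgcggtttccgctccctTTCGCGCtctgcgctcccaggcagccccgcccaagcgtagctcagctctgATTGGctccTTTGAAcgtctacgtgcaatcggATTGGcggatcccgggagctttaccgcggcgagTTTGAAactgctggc
Cdc20, chr4:118437344-118437493, minus strand: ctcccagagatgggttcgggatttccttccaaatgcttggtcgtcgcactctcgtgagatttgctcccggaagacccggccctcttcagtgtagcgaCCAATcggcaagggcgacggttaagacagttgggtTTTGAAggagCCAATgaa
Kif11, chr19:37376232-37376381, plus strand: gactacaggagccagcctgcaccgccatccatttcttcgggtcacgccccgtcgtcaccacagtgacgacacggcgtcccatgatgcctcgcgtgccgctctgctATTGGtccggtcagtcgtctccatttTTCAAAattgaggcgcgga
Top2a, chr11:99024190-99024339, minus strand: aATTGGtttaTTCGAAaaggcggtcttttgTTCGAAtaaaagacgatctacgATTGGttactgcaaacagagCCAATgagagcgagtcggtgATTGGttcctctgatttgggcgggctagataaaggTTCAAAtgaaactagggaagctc

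The 4 S phase promoters show an E2F core and no CHR in these stretches, and the 4 G2/M promoters show a CHR and a CCAAT box. In Mcm6 the E2F core reads TTGGCGC on one strand and overlaps GCGCGAA, the reverse complement of TTCGCGC, at 2 places. Cdk1 holds both kinds, with a CHR whose first base lies 15 bases before the start and an E2F core that begins 130 bases before it. Over whole promoters, 14 of 18 S phase promoters (77.8%) and 3 of 20 G2/M promoters (15%) held an E2F core, against 12.8% of the 19176 promoters of all measured genes. A CHR was found in 2 of 18 S phase promoters (11.1%) and 16 of 20 G2/M promoters (80.0%), against 16.5% of all. A CCAAT box was found in 72.2% of S phase promoters, 80.0% of G2/M promoters and 37.4% of all, and a CHR together with a CCAAT box in 11.1%, 75% and 6.56%. The median share of G and C was 59.5% in S phase promoters, 58.8% in G2/M promoters and 57.3% in all. A match is a run of letters and not a measured binding site.

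**Figure D1:**
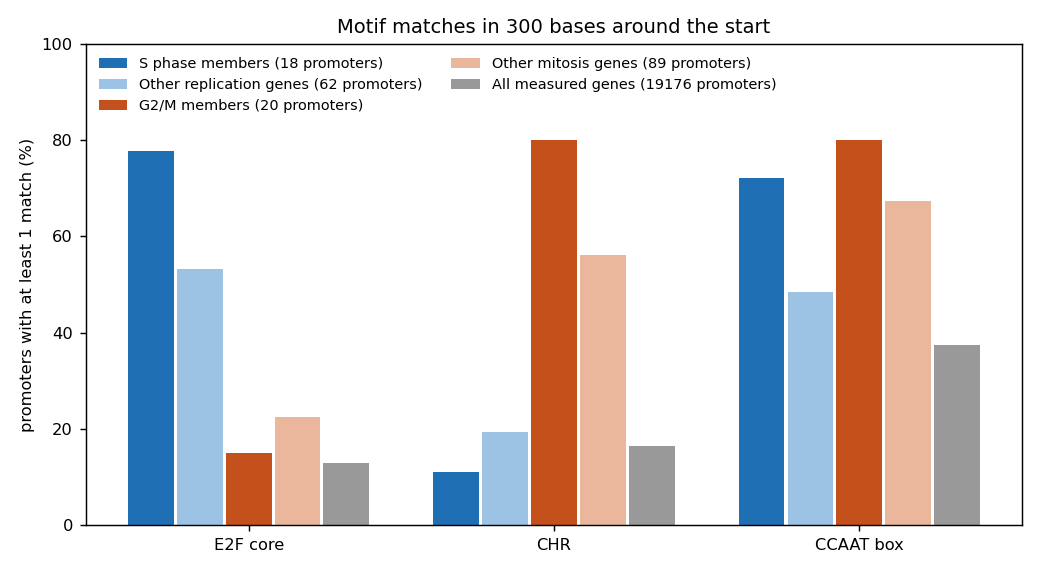
Share of RefSeq promoters with at least 1 match to each motif, in percent on the vertical axis, for S phase members, other replication genes, G2/M members, other mitosis genes and all measured genes. The E2F core is at 77.8% in S phase members and the CHR at 80.0% in G2/M members, against 12.8% and 16.5% of all promoters.

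Marker genes of stem cells and of fibroblasts were followed beside the members. Of the 10 embryonic stem cell markers, among them Pou5f1, Sox2 and Nanog, which had mean log2 signals from 9.43 to 12.96, 9 had a positive and 1 a negative log2 fold change, knockdown minus control as everywhere below. Zfp42 rose, at 0.25 ± 0.045 (SE, adjusted p = 0.0232 in limma), and Lin28a fell, at −0.26 ± 0.044 (SE, adjusted p = 0.0178). So 20% of these markers were called changed (adjusted p under 0.05), and 5 of the 10 had an unadjusted p under 0.05. These shares were 5.53% and 19% of all genes, and 9.24% and 28% of genes with a mean log2 signal above 8. Of the 12 fibroblast markers, which would mark feeder cells and had mean log2 signals from 3.34 to 11.94, 0 were called, and 0 had an unadjusted p under 0.05. The brightest, at 11.94, was Fn1, and the next was Thy1, at 7.07. The part of these marker values in the members' values was not tested. Trim71 read 9.0, 8.95 and 8.98 on the knockdown arrays, against 10.48, 10.50 and 10.51 on the control arrays. Its log2 fold change was −1.52 ± 0.045 (SE, adjusted p = 2.8e-05 in limma). Signals are log2 values from RMA, and they are compared between arrays and not between genes, because probe sets differ in brightness. Knockdown array 3 stood apart, with an upper quartile of 8.42 over all probe sets, against 8.32 to 8.35 on the other 5 arrays.

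A gene was called changed at an adjusted p under 0.05 in limma, with adjustment over all 19937 genes. By that rule 0 of the 45 members rose and 0 fell after the knockdown. Of all genes tested 5.53% were called, 3.39% higher and 2.15% lower, and of the 6666 genes with a mean log2 signal above 8, the range in which all 45 members lay, 9.24% were called. At an unadjusted p under 0.05 there were 6 members, 4 with a positive and 2 with a negative fold change, or 13.3% of members, against 19% of all genes and 28% of genes with a signal above 8. In bulk RNA of this kind, fewer cells in a phase and less transcript per cell cannot be told apart. The smallest adjusted p was 0.135 among S phase members, for Gins2, and 0.172 among G2/M members, for Bub1b. Without knockdown array 3 there was 1 call, Orc1, where 6.53% of all genes were called, and without each of the other 5 arrays there were 0, where 1.25% to 3.28% of all genes were called. With a trended and robust variance prior 5 members were called, Orc1 lower and Aurka, Bub1b, Mki67 and Anln higher, where 10.4% of all genes were called.

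The intervals show how large an unseen change could have been. The median standard error was 0.052 for S phase members and 0.050 for G2/M members. The 95% confidence interval was taken gene by gene and not adjusted for the number of genes. It lay within a 1.25-fold change in either direction for 43 of 45 members (95.6%). This held for 76.3% of all genes and 83.3% of genes with a signal above 8. The exceptions among members were Cdc6, with an interval from 0.036 to 0.39 on the log2 scale, and Pcna, with one from −0.66 to 0.14. Only the interval of Pcna reached past 1.5-fold. Intervals within 1.5-fold made up 97.8% of members, 97.8% of all genes and 98.2% of genes with a signal above 8. RMA sets the arrays to a common distribution, so a change shared by most transcripts of the cell could not be seen in any of these values.

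**Figure D2:**
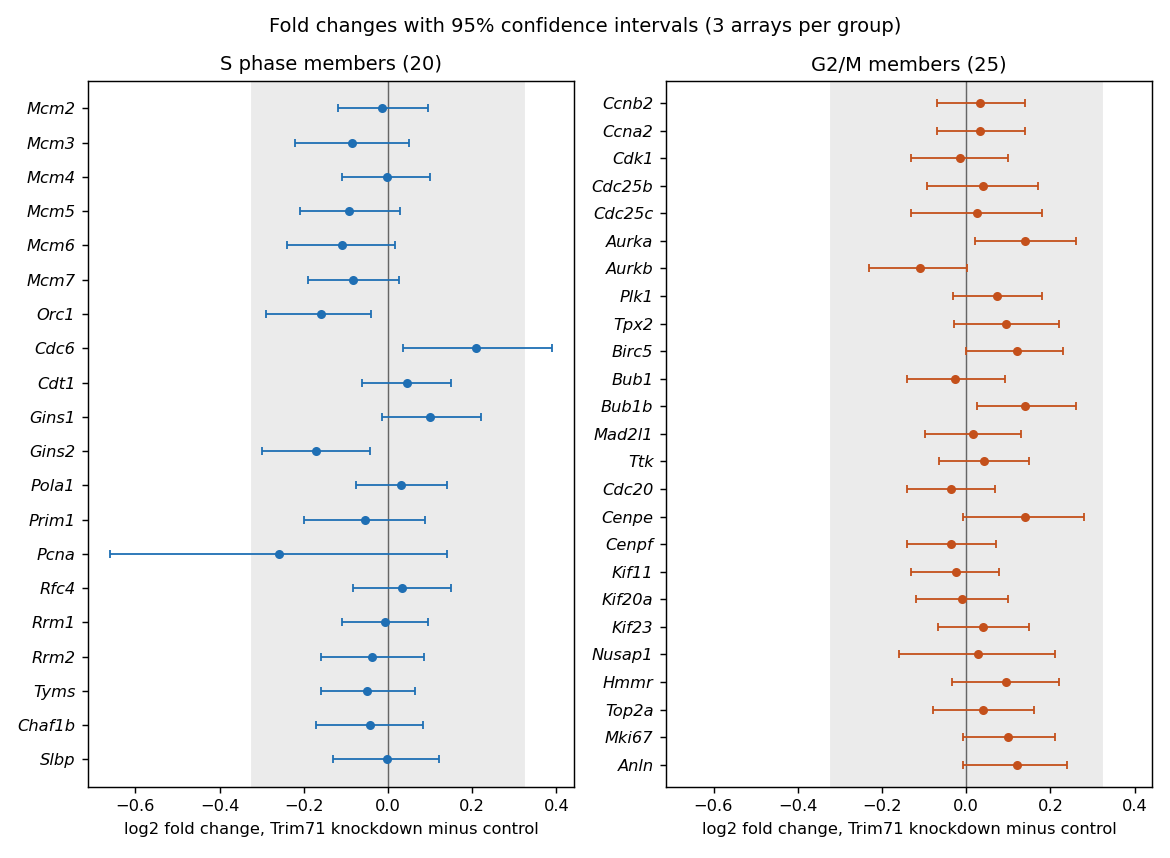
Log2 fold changes (horizontal axis, Trim71 knockdown minus control) of the 20 S phase and 25 G2/M members, in order of role. Points are limma estimates from 3 arrays per group, bars are 95% confidence intervals and the grey band marks a 1.25-fold change in either direction. The intervals of 43 members lie within the band, and those of Cdc6 and Pcna leave it.

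**Figure D3:**
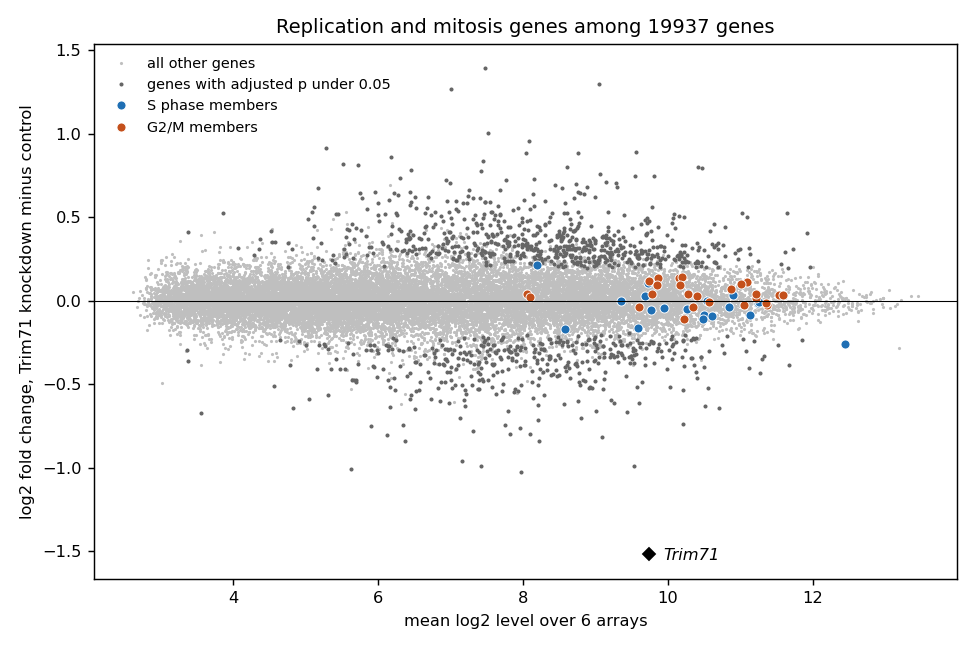
Mean log2 signal over 6 arrays (horizontal axis) and log2 fold change (vertical axis, Trim71 knockdown minus control) for 19937 genes, with called genes in dark grey and members in colour. Members lie at signals from 8.05 to 12.44 and at fold changes from −0.26 to 0.21, and Trim71 is at −1.52.

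Among the S phase members, the MCM genes encode the 6 subunits of the replicative helicase. All 6 had a negative log2 fold change, from −0.0032 for Mcm4 to −0.11 for Mcm6, with a median of −0.084, and none was called (smallest adjusted p in limma 0.336). The other 4 were Mcm2 at −0.014, Mcm3 at −0.085, Mcm5 at −0.092 and Mcm7 at −0.084, with standard errors of 0.047 to 0.058. The 3 knockdown arrays lay below the 3 control arrays for Mcm5, Mcm6 and Mcm7, while the groups overlapped for Mcm2, Mcm3 and Mcm4. Groups did not overlap, in either direction, for 25.5% of all genes and 41.7% of genes with a signal above 8. With 1 array left out the estimate for Mcm2 reached 0.0070 and that for Mcm4 0.0082, so the sign of these 2 was not stable.

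The licensing factors, which load that helicase, did not share a direction. Cdc6, the ATPase that recruits Cdt1 and the MCM ring to origins, read 8.45, 8.15 and 8.28 on the knockdown arrays, against 8.09, 8.09 and 8.06 on the control arrays. The groups did not overlap, the knockdown arrays spread over a wider range than the controls (SD 0.15 and 0.017), and knockdown array 1 was the highest. The log2 fold change was 0.21 ± 0.076 (SE, unadjusted p = 0.0244, adjusted p = 0.176 in limma). Orc1, the largest subunit of the origin recognition complex, read 9.49, 9.45 and 9.59 on the knockdown arrays, against 9.68, 9.68 and 9.65 on the control arrays. All knockdown values were lower than all control values, with the smallest distance on knockdown array 3. Its log2 fold change was −0.16 ± 0.053 (SE, adjusted p = 0.141 in limma), and −0.20 without knockdown array 3 (adjusted p = 0.0473, with a range of 0.0237 to 0.351 over all alternatives). Cdt1, which brings the MCM ring to the origin and is destroyed once S phase begins, was at 0.044 ± 0.045.

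The GINS complex binds the MCM ring with Cdc45 and makes it an active helicase. Its subunit Gins2 read 8.55, 8.40 and 8.52 on the knockdown arrays, against 8.64, 8.66 and 8.69 on the control arrays. The knockdown values were all below the control values, and the log2 fold change was −0.17 ± 0.055 (SE, unadjusted p = 0.015, adjusted p = 0.135 in limma). Gins1, another subunit of the same complex, went the other way, at 9.72, 9.78 and 9.83 on the knockdown arrays, against 9.64, 9.65 and 9.72 on the control arrays. The groups touched without overlapping, and the log2 fold change was 0.10 ± 0.051 (SE, adjusted p = 0.333 in limma).

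Genes of the fork itself were close to 0. Pola1, the catalytic subunit of DNA polymerase alpha, was at 0.031 ± 0.046, Prim1, the primase that starts each strand with RNA, at −0.055 ± 0.061, and Rfc4, a subunit of the complex that loads the sliding clamp, at 0.034 ± 0.050 (SE). Pcna, the clamp, was measured by 2 probe sets that disagreed. The brighter one, used throughout, read 12.65, 12.41 and 11.88 on the knockdown arrays, against 12.53, 12.55 and 12.63 on the control arrays. Knockdown array 3 was the lowest of the 6 and knockdown array 1 the highest, so the groups overlapped, and the log2 fold change was −0.26 ± 0.17 (SE, adjusted p = 0.492 in limma), or −0.042 without knockdown array 3. The other probe set read 12.14, 12.13 and 12.18 on the knockdown arrays, against 12.18, 12.16 and 12.11 on the control arrays, a log2 fold change of −0.0050 ± 0.047 (SE, limma fit of all probe sets). RefSeq lists pseudogenes of Pcna, and whether these probe sets tell them from the gene was not tested.

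The suppliers of nucleotides and histones also stayed near 0. Rrm1 and Rrm2, the large and small subunits of ribonucleotide reductase, were at −0.0072 ± 0.044 and −0.038 ± 0.053, and Tyms, which makes thymidylate, at −0.051 ± 0.049 (SE). Chaf1b, a subunit of the chaperone that deposits histones behind the fork, was at −0.043 ± 0.053. Slbp, which binds the stem loop of histone mRNA and is needed to process it, read 9.31, 9.37 and 9.38 on the knockdown arrays, against 9.33, 9.30 and 9.44 on the control arrays. The knockdown values of Slbp lay within the range of the control values, and its log2 fold change was −0.0029 ± 0.055 (SE, 95% confidence interval −0.13 to 0.12). A dimmer probe set of Slbp was at −0.065 ± 0.050.

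Among the G2/M members, the kinase of mitotic entry and its cyclins lay close to 0. Ccnb2, a B-type cyclin, read 11.60, 11.58 and 11.62 on the knockdown arrays, against 11.58, 11.54 and 11.58 on the control arrays, so the groups overlapped at a log2 fold change of 0.034 ± 0.045 (SE, adjusted p = 0.768 in limma). Ccna2, the cyclin of S phase and G2, was also at 0.034 (SE 0.044), and Cdk1, the kinase both activate, at −0.014 ± 0.050. Cdc25b, a phosphatase that starts the activation of Cdk1, read 8.04, 8.01 and 8.16 on the knockdown arrays, against 8.05, 8.04 and 8.0 on the control arrays. Knockdown array 3 was the highest of the 6 and the log2 fold change was 0.039 ± 0.057. Its relative Cdc25c was at 0.025 ± 0.065.

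The Aurora kinases differed in sign. Aurka, which acts at centrosomes and spindle poles, read 10.18, 10.22 and 10.29 on the knockdown arrays, against 10.11, 10.10 and 10.05 on the control arrays. Every knockdown value was above every control value, and the log2 fold change was 0.14 ± 0.050 (SE, unadjusted p = 0.0272, adjusted p = 0.189 in limma). Its activator on the spindle, Tpx2, was at 0.095 ± 0.054 with groups that did not overlap. Aurkb, the kinase of the chromosomal passenger complex, read 10.11, 10.16 and 10.22 on the knockdown arrays, against 10.26, 10.30 and 10.26 on the control arrays. Here every knockdown value was lower, with a log2 fold change of −0.11 ± 0.049 (SE, adjusted p = 0.274 in limma). Birc5, also called survivin, which sits in the same complex, read 9.82, 9.79 and 9.79 on the knockdown arrays, against 9.67, 9.63 and 9.75 on the control arrays. Its values were higher on all 3 knockdown arrays, at 0.12 ± 0.050 (SE, unadjusted p = 0.0497, adjusted p = 0.262 in limma). Plk1, the polo kinase of mitotic entry and exit, was at 0.073 ± 0.045, again with groups that did not overlap.

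The spindle checkpoint holds anaphase until all kinetochores are attached. Bub1b, which encodes the checkpoint inhibitor BubR1, read 10.27, 10.20 and 10.31 on the knockdown arrays, against 10.12, 10.09 and 10.15 on the control arrays. The knockdown values were all higher, and the log2 fold change was 0.14 ± 0.050 (SE, unadjusted p = 0.0232, adjusted p = 0.172 in limma). The other checkpoint genes were nearer to 0, with Bub1 at −0.026, Mad2l1 at 0.016, Ttk, which encodes the kinase Mps1, at 0.043 and Cdc20, the target of the checkpoint and activator of the anaphase-promoting complex, at −0.036 (SE 0.045 to 0.051). At the kinetochore, the motor gene Cenpe was at 0.14 ± 0.062 with overlapping groups, and Cenpf at −0.037 ± 0.046.

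The spindle motors showed little. Kif20a, a kinesin of the central spindle, read 10.53, 10.53 and 10.62 on the knockdown arrays, against 10.58, 10.57 and 10.56 on the control arrays, and its log2 fold change was −0.0094 ± 0.048 (SE, 95% confidence interval −0.12 to 0.10). Knockdown array 3 was again the highest while the other 2 were the lowest of the 6. Kif11, which pushes the spindle poles apart, was at −0.024 ± 0.044, and Kif23, a subunit of centralspindlin, at 0.040 ± 0.047. Nusap1, which bundles spindle microtubules, was at 0.028 ± 0.080, with the largest standard error among G2/M members, and Hmmr, a microtubule-binding protein of the spindle poles, at 0.095 ± 0.056. Mki67, which encodes the proliferation antigen Ki-67 on the surface of mitotic chromosomes, was at 0.10 ± 0.046, Anln, which organises the cleavage furrow, at 0.12 ± 0.053 and Top2a, which untangles sister chromatids, at 0.039 ± 0.050 (SE). A dim second probe set of Top2a, at log2 signals of 4.50 to 4.96, was at 0.23 ± 0.084 (SE, adjusted p = 0.297 in the limma fit of all probe sets).

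**Figure D4:**
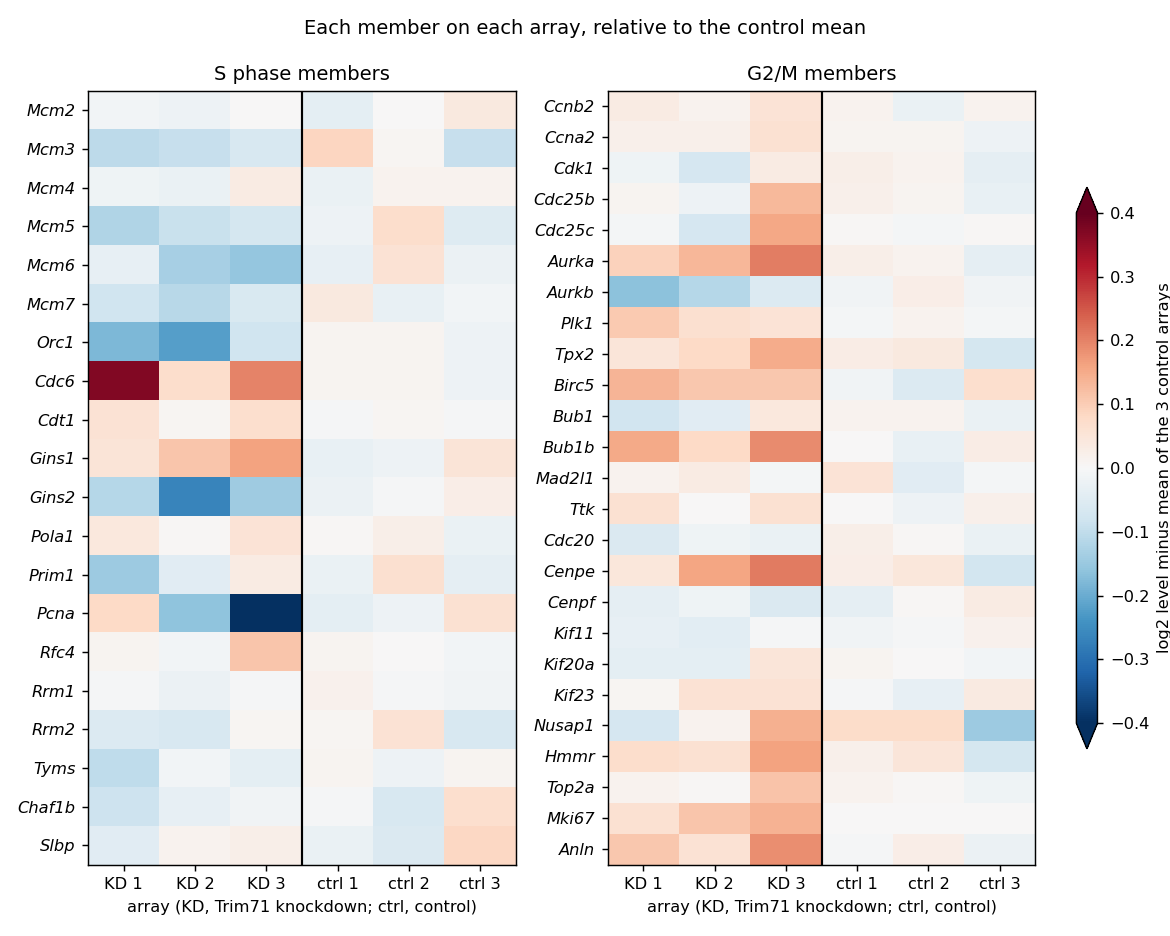
Log2 signal of each member on each array minus its mean on the 3 control arrays (colour scale), with the 3 Trim71 knockdown arrays left of the line and the 3 control arrays right of it. G2/M members are reddest on knockdown array 3, where their median is 0.065, and Pcna is lowest on that array.

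Set side by side, the members of the 2 phases leaned to opposite sides of 0 by small amounts. The median log2 fold change was −0.040 for S phase members and 0.039 for G2/M members, against 0.0048 over all genes and 0.0078 over genes with a signal above 8. Estimates were negative for 15 of 20 S phase members and positive for 18 of 25 G2/M members, and 51.8% of all genes were positive. The longer lists of other genes both had positive medians. For other replication genes the median was 0.023, with 37 of 63 positive, a sign opposite to that of the S phase members. For other mitosis genes it was 0.048, with 68 of 89 positive, the same sign as that of the G2/M members. The groups did not overlap for 7 S phase members, 2 higher and 5 lower, and for 10 G2/M members, 9 higher and 1 lower. These 17 of 45 make 37.8%, against 25.5% of all genes, 14.7% higher and 10.8% lower, and 41.7% of genes with a signal above 8. With arrays centred on their medians, where the median over all genes was −0.025, the medians were −0.070 for S phase and 0.0087 for G2/M members, and 15 of 25 G2/M members were positive. No p is given for these medians, since the members were chosen with results of these arrays known and the genes share the same 6 arrays.

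The median of the G2/M members stood highest on knockdown array 3, as did that of all genes above the median signal. Their median distance from the control mean was 0.018, 0.013 and 0.065 on knockdown arrays 1 to 3, and 0.011, 0.0031 and −0.013 on the control arrays. Over genes above the median signal the same quantity was −0.015, −0.012 and 0.056 on the knockdown arrays, and between −0.0072 and 0.0097 on the control arrays. For S phase members it was −0.043, −0.030 and −0.0011 on the knockdown arrays, and between −0.0082 and 0.0040 on the control arrays. Without knockdown array 3 the G2/M median was 0.024, with 15 of 25 members positive, and the S phase median −0.050. Without knockdown array 1 they were 0.055 and −0.018, and the G2/M median was 0.058 without knockdown array 2. The difference between the phase medians was 0.079 with all arrays and 0.060 to 0.094 with 1 array left out. With arrays weighted in the fit, knockdown array 3 least at 0.30, it was 0.058. The medians were then −0.035 for S phase and 0.023 for G2/M members, with 15 of 25 G2/M members positive.

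Further genes of both processes were examined in 2 longer lists. Of 63 other replication genes measured, 7 rose and 0 fell, 11.1% of the list, and 13 were higher and 2 lower at an unadjusted p under 0.05, 23.8% of the list. Of all genes 5.53% were called and 19% had an unadjusted p under 0.05, and of genes with a signal above 8 these shares were 9.24% and 28%. Dtl rose most. It encodes the receptor of the CRL4 ubiquitin ligase that marks Cdt1 for destruction at the clamp, and it read 10.29, 10.32 and 10.34 on the knockdown arrays, against 9.84, 9.82 and 9.80 on the control arrays. The groups lay far apart, with a log2 fold change of 0.50 ± 0.045 (SE, adjusted p = 0.00216 in limma), and Dtl was called with any array left out. The others were Ung, which removes uracil from DNA, at 0.31, Ticrr, also called treslin, an initiator of replication, at 0.29, Dck, a nucleoside salvage kinase, at 0.28, Pole3, a histone-fold subunit of polymerase epsilon, at 0.27, Chtf18, a subunit of an alternative clamp loader, at 0.22, and Chaf1a, the partner of Chaf1b, at 0.20. The count of 7 became 2, 1 and 4 without knockdown arrays 1, 2 and 3, and 1 without each of the control arrays.

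Of 89 other mitosis genes measured, 9 rose and 1 fell, 11.2% of the list, and 20 were higher and 3 lower at an unadjusted p under 0.05, 25.8% of the list. These shares too stand beside 9.24% and 28% of genes with a signal above 8, and 5.53% and 19% of all genes. Pbk, a mitotic kinase gene, rose most, with 9.03, 8.97 and 9.15 on the knockdown arrays, against 8.58, 8.63 and 8.43 on the control arrays. The groups did not overlap, and its log2 fold change was 0.50 ± 0.072 (SE, adjusted p = 0.0104 in limma, 0.051 without control array 1, with a range of 0.000214 to 0.0752 over all alternatives). Racgap1, the partner of Kif23 in centralspindlin, rose by 0.33 ± 0.051 (adjusted p = 0.0144 in limma), and the chromosomal passenger scaffold Incenp by 0.24 ± 0.047 (adjusted p = 0.0275). Mybl2, which encodes the MYB-MuvB subunit B-Myb, rose by 0.28, Fam83d, which recruits a kinase to the spindle, by 0.28, and Cdca2, which brings a phosphatase to chromosomes at mitotic exit, by 0.26. Espl1, which encodes separase, the protease that cuts cohesin, rose by 0.24, Ncapd3, a condensin II subunit, by 0.23, and Cit, the citron kinase of cytokinesis, by 0.22.

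Pttg1, which encodes securin, the inhibitor of separase, was the 1 mitosis gene that fell. It read 8.23, 8.23 and 8.35 on the knockdown arrays, against 8.57, 8.51 and 8.78 on the control arrays. The knockdown values were all below the control values, and the log2 fold change was −0.35 ± 0.078 (SE, adjusted p = 0.0441 in limma). The counts of 9 higher and 1 lower became 4 and 0, 2 and 0, and 9 and 2 without knockdown arrays 1, 2 and 3. Without control arrays 1, 2 and 3 the higher genes numbered 0, 1 and 1, and 0 were lower. Of the 17 called genes in both lists, Dtl was the 1 called with every array left out in turn. Whether the calls in these lists differ from the absence of calls among members of the same complexes was not tested.

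**Figure D5:**
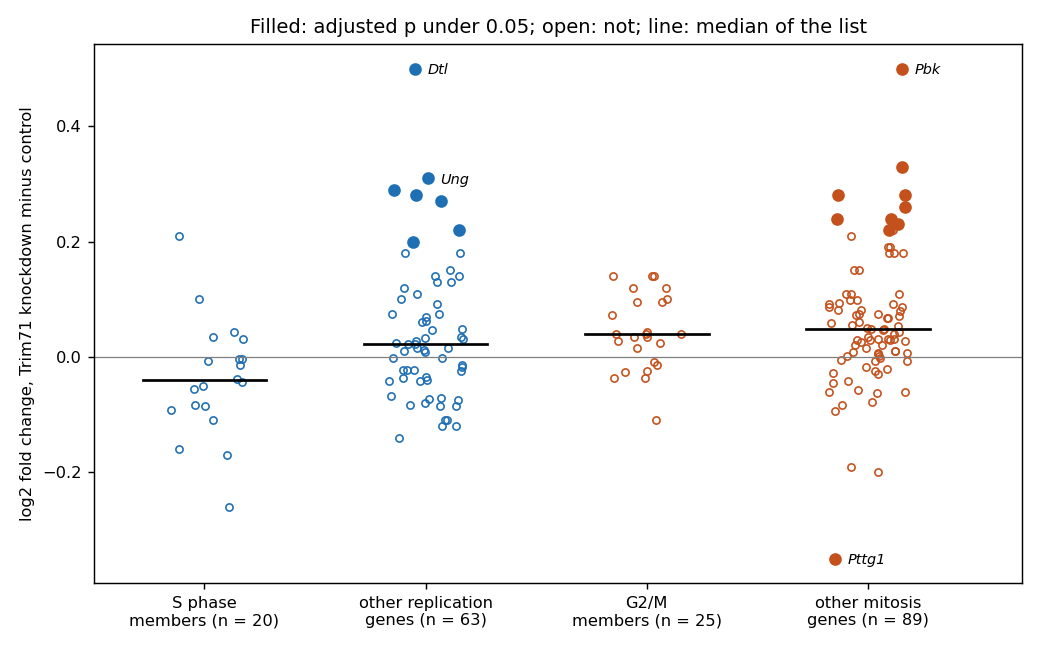
Log2 fold changes (vertical axis, Trim71 knockdown minus control) of S phase members, other replication genes, G2/M members and other mitosis genes, with 1 point per gene, horizontal scatter for legibility and a line at each median. Filled points have an adjusted p under 0.05, 0 among members, 7 among other replication genes and 10 among other mitosis genes.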

How the data were processed

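The authors deposited log2 expression values, 1 per probe set and array, made with RMA and the affy package per the submitters' processing notes, with no versions given. RMA subtracts background, equalizes the arrays' quantiles and combines the probes of a set. The values carry no detection calls. Per the labels' protocols, 100 ng of RNA went into a whole-transcript amplification.

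Names came from GEO's annotation of the platform. Of 34760 probe sets, 21640 had 1 symbol, 1321 had several and 11799 were unnamed here, and 21553 of those with 1 symbol matched RefSeq by Entrez identifier. Genes came from probe sets with 1 symbol, taking the set with the highest mean over 6 arrays where there were several, which gave 19937 genes with no filter on signal.

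Group was the only term of the limma 3.58.1 fit (R 4.3.3, lmFit and eBayes), with Benjamini-Hochberg adjustment over all genes. The number of arrays limits the precision. The fit was tested on simulated data, where it called 28.4%, 79.1% and 95.5% of genes changed by 1.25-, 1.5- and 2-fold. These were 67, 67 and 66 of 19937 genes, drawn at random from all signal levels. They made up a smaller share of genes than was called in the data, so the percentages are not those of the members. Figures used Python 3.11.15, pandas 2.3.3 and matplotlib 3.10.9.

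Members and lists were chosen with earlier results of these data known. Values per array are printed for the 4 members of each phase with the largest absolute moderated statistic, those with the highest, lowest and most nearly unchanged values, and the leading genes of the longer lists. The promoters shown were chosen after the search. Results were repeated with a replicate block, with each array left out, with only bright genes, a trended and robust prior, array weights, mean probe sets, 2 other scalings, no moderation and all probe sets. One more, added after the data were seen, set members against the bright genes.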

Additional observations from a re-analysis of the deposited data

How the results depend on the processing

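Across 15 alternatives, 11 of 675 member values had an adjusted p under 0.05. These calls were Orc1 without knockdown array 3 and with repeated quantile normalization, Gins2 and Orc1 among bright genes and with array weights, and Orc1, Aurka, Bub1b, Mki67 and Anln with a trended and robust prior. The S phase members called lower therefore numbered 2 among bright genes and 1 with the trended prior. They numbered 2 with array weights, 1 after repeated quantile normalization and 0 to 1 with an array left out. The G2/M members called higher numbered 4 with the trended prior. In the same settings 19% of bright genes were called. Of all genes, 10.4% were called with the trended prior, 10.9% with array weights and 7.73% after repeated quantile normalization. Without knockdown array 3 the share was 6.53%. The sign changed under some alternative for 11 members, all without a call, and held for 34. The S phase median was −0.07 with centred arrays and −0.05 to −0.018 with an array left out, and the G2/M median 0.0087 with centred arrays and 0.024 to 0.058 with an array left out. Set against the median of bright genes, an alternative chosen after seeing the data, they were −0.047 and 0.032.

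All genes called higher and lower numbered 675 and 428. With an array left out they numbered 148 to 603 and 101 to 699. They numbered 1124 and 766 among bright genes, 1213 and 854 with the trended prior, 1114 and 1058 with array weights, 779 and 763 after repeated quantile normalization, 527 and 616 with centred arrays, 271 and 142 without moderation, and 198 and 113 with all probe sets tested. Other replication genes called higher numbered 1 to 4 with an array left out, 4 with centred arrays and 1 with all probe sets. Other mitosis genes called higher and lower numbered 0 to 9 and 0 to 2 with an array left out, 17 and 2 among bright genes, 19 and 2 with the trended prior, 16 and 3 with array weights, 13 and 2 after repeated quantile normalization, 8 and 2 with centred arrays, 9 and 0 without moderation, and 1 and 0 with all probe sets. The causes were not tested. Trim71 stayed between −1.55 and −1.51 throughout.

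The replicate numbers did not pair the arrays. Same-numbered arrays correlated at −0.02, −0.15 and −0.24 in their deviations from the group means. With the replicate number as a block 0 members were called, as without it, and 171 genes were higher and 108 lower, with 1 other replication gene called higher and 0 other mitosis genes called in each direction. Of 255 values of the 17 called genes in the longer lists, 116 lost the call and 0 changed sign.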
